A study of Homo sapiens with 6 samples.

Results

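The RBM genes encode RNA-binding motif proteins, a family named for the RNA recognition motif, the fold with which most of its members grip single-stranded RNA. Its members help to choose exons, sit in the spliceosome and the exon junction complex, guide the m6A methyltransferase to its targets, hand transcripts to the exosome and take part in ribosome assembly. Many are dosage-sensitive regulators of splicing in tumour cells. Here the family was taken by name, as the protein-coding genes of the deposited count table whose symbol is RBM and a number, RBMX and its copies, or RBMS1, RBMS2 or RBMS3. This gave 42 of the 30651 genes listed, and 39 of them had enough counts to be tested.

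The cells were PC-3, an established human prostate cancer line that was grown from a metastasis in bone. The groups were Ctrl, with 3 libraries, and MTA1, with 3 libraries whose data columns carry the prefix sh of a short hairpin RNA. MTA1 belongs to NuRD, a complex that remodels nucleosomes and removes acetyl groups from histones, and the title of the series also speaks of direct RNA interactions and of splice variants. The labels name lentivirus, transfection and screening for stable clones for all samples, but give neither the number of hairpins or clones nor what the control cells carried. They do not say that libraries came from separate cultures, so the spread behind each p-value is that between these libraries and may be technical. RNA was total RNA from whole cultures, in which fewer cells that express a gene and less RNA per cell cannot be told apart.

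The libraries held 29909172 to 33849262 counts. The targeted gene, MTA1, was counted 1185, 1331 and 1352 times in the Ctrl libraries, and 528, 572 and 519 times in those of the MTA1 group. Its level was 40.0 ± 1.47 CPM in Ctrl and 17.4 ± 0.660 CPM in the MTA1 group (log2 fold change -1.21 ± 0.054, edgeR adjusted p = 4.3e-13), the direction of a knockdown. CPM are counts scaled to library size and TMM factors and are given as mean ± SD over 3 libraries. Log2 fold changes are of the MTA1 group over Ctrl, ± SE. This SE was derived, as the absolute log2 fold change divided by the square root of the edgeR F statistic. Among markers of the line, KRT8, KRT18, VIM and CD44 were abundant and KRT8 held 1531 to 1870 CPM (for markers without the TMM factors). AXL was low, at 6.74 to 7.20 CPM in Ctrl and 17.7 to 17.9 CPM in the MTA1 group. KRT8 fell (log2 fold change -0.29), while VIM (0.41), CD44 (0.73) and AXL (1.29) rose. KRT18 stood at -0.08 (edgeR adjusted p = 0.13). The prostate antigen gene KLK3 had 1 count in all libraries together. The summed level of 6 fibroblast markers, mostly COL1A1 and LUM, was between 46.6 and 50.6 CPM in the Ctrl libraries and between 35.0 and 37.0 CPM in the others, with PDGFRA at 1 to 5 counts. The 5 leukocyte markers listed summed to 1.16 to 2.19 CPM, with PTPRC at 0 to 3 counts. The part of these markers in the results below was not tested.

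Of the 39 RBM genes tested, 11 were higher and 12 were lower in the MTA1 group, and 16 did not pass. The test was the quasi-likelihood F test of edgeR, and passing means an adjusted p below 0.05. The share that passed was 59.0%, against 58.1% of all tested genes, and by direction 28.2% against 29.5% higher and 30.8% against 28.6% lower. The balance of directions depended on the scaling. With library size as the only scaling, 12 members were higher and 10 lower. Of all tested genes 5376 were then higher and 3574 lower, against 4550 and 4404 with the TMM factors. The groups did not overlap for 24 members (61.5%), against 62.7% of all tested genes. The family therefore changed about as often as any other genes, and the results lie in which members moved which way. None of the 39 tested members changed by 2-fold or more, whereas 6.19% of all tested genes did. A change of at least 1.5-fold was found for 4 members (10.3%), against 19.6% of all tested genes. The median log2 fold change of the members was -0.07, against 0.0015 for all tested genes. For comparison, 2 of 11 SRSF genes rose and 4 fell, 5 of 22 HNRNP genes rose and 9 fell, and 25 of 49 DDX and DHX helicase genes rose and 8 fell, with median log2 fold changes of -0.02, -0.03 and 0.14.

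**Figure D1:**
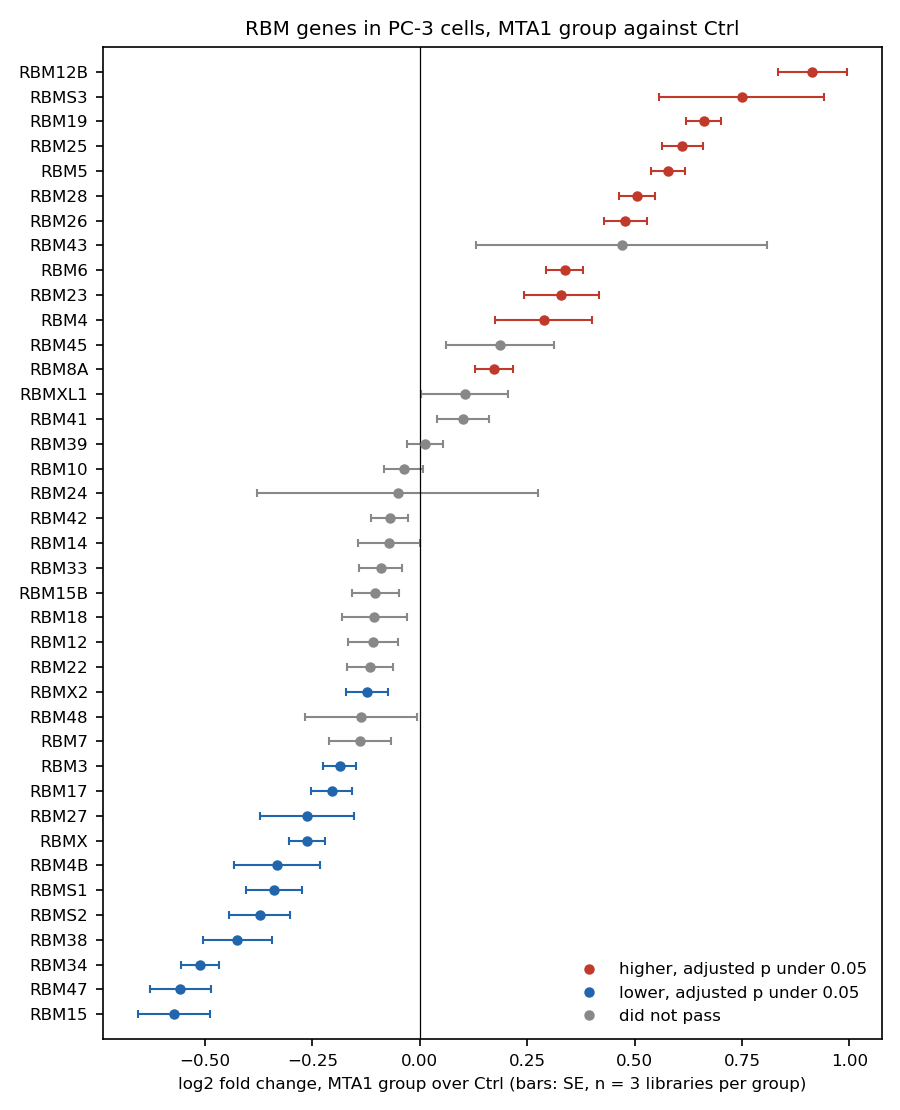
Log2 fold change of each of the 39 tested RBM genes, MTA1 group over Ctrl, with colours for the call. Bars are the SE derived from the edgeR F statistic. The values run from RBM15 at -0.57 to RBM12B at 0.91, with 11 genes higher, 12 lower and 16 that did not pass.

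Promoters are shown for the 2 members with the highest and the 2 with the lowest log2 fold change within a choice. The choice was of members that passed with a mean of at least 2 CPM and 1 start in the RefSeq table. RBM12B and RBMS3 rose more than those shown, and RBM47 fell more than RBM34, but they lay outside this choice. They are RefSeq sequences of GRCh38.p14, from 250 bases before to 50 after the start of the gene, 5′ to 3′ along the gene's strand. Capitals mark matches, on either strand, to CCGGAAG (ETS factors), CACGTG (E-box), AAGATGGC (YY1), TGACGTCA (CRE) or the NRF1 motif. RBM19 and RBM25 rose, and RBM34 and RBM15 fell.
RBM19, chr12:113966276-113966575, minus strand: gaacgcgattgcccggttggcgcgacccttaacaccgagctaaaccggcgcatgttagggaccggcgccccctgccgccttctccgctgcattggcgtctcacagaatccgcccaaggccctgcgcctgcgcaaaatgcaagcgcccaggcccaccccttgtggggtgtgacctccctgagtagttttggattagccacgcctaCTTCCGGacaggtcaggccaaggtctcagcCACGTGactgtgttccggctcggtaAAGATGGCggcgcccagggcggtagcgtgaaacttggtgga
RBM25, chr14:73058284-73058583, plus strand: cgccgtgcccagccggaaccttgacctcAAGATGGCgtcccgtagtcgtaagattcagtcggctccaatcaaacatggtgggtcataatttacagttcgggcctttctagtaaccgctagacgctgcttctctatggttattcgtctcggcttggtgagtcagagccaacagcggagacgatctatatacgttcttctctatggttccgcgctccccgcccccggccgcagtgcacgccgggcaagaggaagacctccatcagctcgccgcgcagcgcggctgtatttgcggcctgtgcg
RBM34, chr1:235161201-235161500, minus strand: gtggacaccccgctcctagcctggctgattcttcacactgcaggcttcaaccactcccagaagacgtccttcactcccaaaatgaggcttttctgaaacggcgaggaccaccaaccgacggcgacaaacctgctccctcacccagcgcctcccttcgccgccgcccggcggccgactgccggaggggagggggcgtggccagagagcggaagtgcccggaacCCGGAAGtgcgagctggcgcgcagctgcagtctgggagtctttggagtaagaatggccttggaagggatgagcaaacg
RBM15, chr1:110339127-110339426, plus strand: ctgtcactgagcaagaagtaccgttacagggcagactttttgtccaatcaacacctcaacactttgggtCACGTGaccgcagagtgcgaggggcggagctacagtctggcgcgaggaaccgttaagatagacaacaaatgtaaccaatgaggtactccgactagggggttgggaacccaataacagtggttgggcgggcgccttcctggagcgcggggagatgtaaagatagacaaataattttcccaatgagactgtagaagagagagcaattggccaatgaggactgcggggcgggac

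In these windows RBM19 held CCGGAAG, read on the other strand, with its first printed base at -46 from the start, CACGTG at -16 and AAGATGGC at 10. RBM25 held AAGATGGC at -222, RBM34 held CCGGAAG at -28 and RBM15 held CACGTG at -181. Promoters were found for 38 of the 42 members, 10 of the genes that rose, 12 of those that fell and 13 that did not pass. The letters AAGATGGC stood in 4 of 10 that rose (RBM19, RBM25, RBM26 and RBM8A), in none of 12 that fell and in 1 of 13 others (RBM15B), against 2.89% of all 35116 promoters of this length. CCGGAAG stood in 3 of 10, 3 of 12 and 3 of 13, against 10.3% of all promoters, and CACGTG in 1 of each, against 7.26%. The NRF1 motif was found in RBM23 and RBMX2 (1.24% of all promoters), and TGACGTCA in RBM12, RBM18 and RBM42 (1.85%). Of the other letters searched on both strands, CCAAT stood in 21 members (34.6% of all promoters), GGGCGG in 23 (45.0%), TATAAA in 4 (11.5%) and ACGTG, which is part of CACGTG, in 7 (21.4%). A member with several starts counted once if any of its promoters held the letters, whereas the shares of all promoters are per promoter. The shares are therefore not alike, and a member with several starts matches more easily. A match is a stretch of letters and not a bound site.

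Of 11 regulators of exon choice tested, RBM5, RBM6, RBM23 and RBM4 rose, RBM47, RBM38 and RBM4B fell, and RBM10, RBM39, RBM45 and RBM24 did not pass. These shares, 36.4% higher and 27.3% lower, lie near those of all tested genes, 29.5% and 28.6%. RBM5 (ENSG00000003756.17, chromosome 3), a spliceosome-associated tumour suppressor candidate that regulates exons of apoptosis genes, had 143, 145 and 145 CPM in Ctrl replicates 1, 2 and 3 and 212, 212 and 223 CPM in the MTA1 replicates. Every MTA1 library lay above every Ctrl library, and the gene rose 1.49-fold (0.58 ± 0.039, adjusted p = 1.5e-10). Its neighbour RBM6 (ENSG00000004534.15), in the same region of chromosome 3 and similar in sequence, had 296, 285 and 293 CPM in Ctrl and 356, 358 and 389 CPM in the MTA1 group. The groups did not overlap and RBM6 rose 1.26-fold (0.34 ± 0.042, adjusted p = 1.0e-06). RBM10 (ENSG00000182872.16, chromosome X), the closest relative of RBM5 in structure, had 231, 254 and 251 CPM in Ctrl and 230.4, 235 and 253 CPM in the MTA1 group. Those ranges overlapped (-0.04 ± 0.046, adjusted p = 0.50), and over its alternatives the adjusted p ran from 0.017 to 1.0. RBM10 passed as lower once GC content and length were corrected for (-0.12, adjusted p = 0.017), and its sign turned with library size as the only scaling (0.03, adjusted p = 0.60).

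RBM47 (ENSG00000163694.15, chromosome 4), an RNA-binding protein of epithelial cells, fell to 0.679 of its control level. It had 13.2, 13.3 and 12.9 CPM in Ctrl and 9.22, 9.08 and 8.44 CPM in the MTA1 group, with a clear gap between the groups (-0.56 ± 0.071, adjusted p = 1.2e-06). RBM38, a p53 target that binds and stabilizes the CDKN1A message, fell from 9.21 ± 0.454 to 6.85 ± 0.0490 CPM (-0.42 ± 0.080, adjusted p = 1.4e-04). RBM23 (ENSG00000100461.18), a close relative of RBM39, had 6.28, 6.90 and 5.87 CPM in Ctrl and 7.91, 8.07 and 7.96 CPM in the MTA1 group and rose (0.33 ± 0.087, adjusted p = 0.0030). RBM39 itself, a splicing factor and coactivator that is the target of sulfonamide degraders, was at 219.8 ± 6.42 and 222 ± 9.26 CPM (0.01 ± 0.042, adjusted p = 0.83). RBM45 (0.19 ± 0.13) and the muscle splicing factor RBM24 (-0.05 ± 0.33) were at 3.24 and 0.585 CPM in Ctrl and did not pass.

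RBM4 and RBM4B, neighbouring genes on chromosome 11 that encode closely similar proteins, went in opposite directions. RBM4 had 3.69, 3.91 and 4.71 CPM in Ctrl and 4.99, 5.14 and 4.93 CPM in the MTA1 group (0.29 ± 0.11, adjusted p = 0.035). RBM4B had 5.60, 5.59 and 6.02 CPM in Ctrl and 4.66, 4.76 and 4.25 CPM in the MTA1 group (-0.33 ± 0.10, adjusted p = 0.0078). RBM4 no longer passed when Ctrl replicate 1 was left out (adjusted p = 0.16), nor without Ctrl replicate 2 (0.11), MTA1 replicate 1 (0.057) or MTA1 replicate 2 (0.088), and with DESeq2 (0.11), and over all its alternatives the adjusted p ran from 0.010 to 0.40. The locus also limits what its count says: the table lists a read-through gene, RBM14-RBM4, with 1147 to 1238 counts per library, and it held 70.2% to 71.1% of the counts of RBM14, RBM4 and RBM14-RBM4 together. That sum was 53.3 ± 1.09 CPM in Ctrl and 54.0 ± 0.752 CPM in the MTA1 group, and RBM14-RBM4 alone did not pass (0.01 ± 0.048, adjusted p = 0.84).

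**Figure D2:**
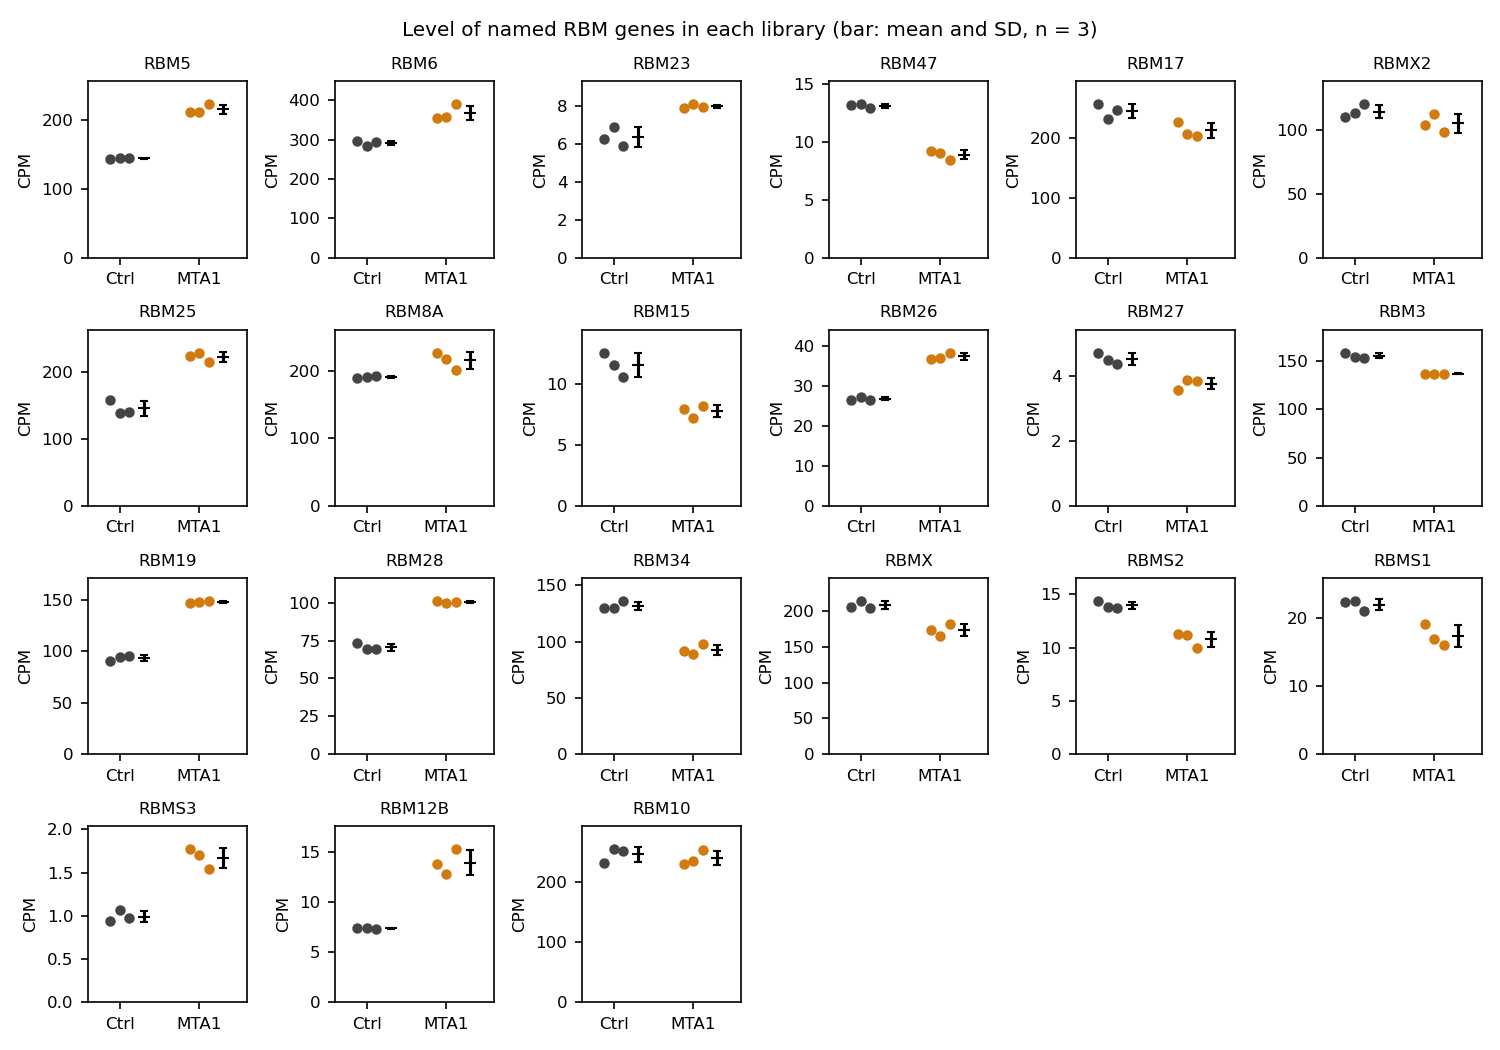
CPM of 21 named RBM genes in each library (points, grey for Ctrl and orange for MTA1), with the mean and SD over 3 libraries per group and each axis starting at 0. The groups are apart in 19 panels and overlap for RBM10 and RBMX2. Most panels were chosen because the gene passed, so this separation was largely fixed by the choice. Among all 39 tested members 24 did not overlap (61.5%), against 62.7% of all tested genes.

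Of the 7 tested members bound to the spliceosome, RBM25 rose, RBM17 and RBMX2 fell, and RBM22, RBM41, RBM42 and RBM48 did not pass. The share that passed was 42.9%, against 58.1% of all tested genes. RBM25 (ENSG00000119707.14, chromosome 14), which associates with the U1 particle and regulates splice site choice, had 158, 139.7 and 140.2 CPM in Ctrl and 224, 229.6 and 215 CPM in the MTA1 group. The lowest MTA1 library stood well above the highest Ctrl library, and the rise was 1.53-fold (0.61 ± 0.048, adjusted p = 1.4e-09). RBM17 (ENSG00000134453.16, chromosome 10), also called SPF45, which takes part in recognition of the 3′ splice site, had 255, 232 and 247 CPM in Ctrl and 227, 207 and 203 CPM in the MTA1 group. The gap between the groups was small and RBM17 fell by 0.21 ± 0.047 on the log2 scale (adjusted p = 9.9e-04), a call that ended on the log2(FPKM + 0.1) scale (limma adjusted p = 0.063). RBMX2 (ENSG00000134597.16, chromosome X), a component of the activated spliceosome, had 110.3, 113 and 120.1 CPM in Ctrl and 104, 113 and 98.6 CPM in the MTA1 group. These ranges overlapped, and the call (-0.12 ± 0.049, adjusted p = 0.039) did not hold when Ctrl replicate 2 was left out (adjusted p = 0.058), nor without Ctrl replicate 3 (0.19), MTA1 replicate 1 (0.085) or MTA1 replicate 3 (0.17), and after the GC and length correction (-0.01, 0.84).

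Among those that did not pass, RBM22, which contacts the RNA core of the spliceosome, was at 24.6 ± 0.216 and 22.7 ± 0.869 CPM without overlap (-0.12 ± 0.053, adjusted p = 0.069). It passed without MTA1 replicate 3 (adjusted p = 0.031). RBM42 stood at -0.07 ± 0.043, and the minor spliceosome proteins RBM41 (0.10 ± 0.061) and RBM48 (-0.14 ± 0.13) stood on either side of 0. Of 13 other proteins of the minor spliceosome, which removes a rare class of introns, 9 fell (69.2%, against 28.6% of all tested genes) and 2 rose (15.4%, against 29.5%). Their median log2 fold change was -0.28, and their median absolute value was 0.30, against 0.29 for all tested genes. This list and the partner lists below were chosen with earlier results of these data known, so their shares are only a description. ZCRB1 had the lowest value, from 199 ± 13.8 to 114 ± 6.26 CPM (-0.80 ± 0.051, adjusted p = 5.2e-11), and CENATAC rose from 19.8 ± 1.25 to 29.2 ± 1.03 CPM (0.56 ± 0.058, adjusted p = 7.3e-08). ARMC7, the binding partner of RBM48, chosen after its value was seen, fell (-0.57 ± 0.093, adjusted p = 2.7e-05).

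The exon junction complex marks spliced messages for export and surveillance, and RBM8A encodes its core subunit Y14. RBM8A (ENSG00000265241.7, chromosome 1) had 189, 191 and 192 CPM in Ctrl and 226, 217 and 201 CPM in the MTA1 group. All MTA1 libraries were higher, replicate 3 least so, and the rise was 1.13-fold (0.17 ± 0.044, adjusted p = 0.0021). In GENCODE release 29, 25.1% of its exonic bases are exonic on the opposite strand as well. MAGOH, the partner of Y14, did not pass (-0.12 ± 0.055, adjusted p = 0.068) and its copy MAGOHB fell (-0.20 ± 0.041, adjusted p = 2.4e-04), both chosen after their values were seen. Of 11 genes of the complex and of nonsense-mediated decay, 2 rose (18.2%, against 29.5% of all tested genes) and 4 fell (36.4%, against 28.6%). SAP18 fell from 215 ± 1.10 to 181 ± 3.16 CPM (-0.25 ± 0.038, adjusted p = 1.4e-05) and UPF3A rose from 163 ± 2.70 to 199 ± 3.98 CPM (0.29 ± 0.039, adjusted p = 2.4e-06). A processed pseudogene of RBM8A, RBM8B, was listed with 48 to 79 counts per library and can share reads with it.

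RBM15 and RBM15B encode adaptors of the m6A methyltransferase, the enzyme complex that methylates adenosines in messages. RBM15 fell and RBM15B did not pass. RBM15 (ENSG00000162775.17, chromosome 1), whose protein binds RNA and recruits the complex, had 12.6, 11.6 and 10.6 CPM in Ctrl and 7.97, 7.22 and 8.15 CPM in the MTA1 group. No library crossed over, and RBM15 fell to 0.673 of its control level (-0.57 ± 0.083, adjusted p = 6.5e-06), the lowest log2 fold change of the 39 tested members. RBM15B (ENSG00000259956.2, chromosome 3), the paralog with the same role, was the more abundant, at 10.3 ± 0.484 FPKM in Ctrl against 2.14 ± 0.176 FPKM for RBM15. It had 75.7, 81.8 and 80.7 CPM in Ctrl and 67.2, 74.3 and 80.2 CPM in the MTA1 group, which overlapped, and did not pass (-0.10 ± 0.055, adjusted p = 0.11). It passed as lower without Ctrl replicate 1 (adjusted p = 0.045), without MTA1 replicate 3 (0.0086) and after the GC and length correction (-0.21, 0.0015), with a range over its alternatives from 0.0015 to 1.0.

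Of 7 measured partners of this complex, 4 rose (57.1%, against 29.5% of all tested genes) and 1 fell (14.3%, against 28.6%), with a median of 0.28 on the log2 scale. ZC3H13, a scaffold of the complex, rose from 58.9 ± 3.21 to 90.7 ± 1.72 CPM (0.62 ± 0.046, adjusted p = 6.3e-10), and the catalytic subunit METTL3, chosen after its value was seen, rose from 23.8 ± 1.63 to 32.7 ± 1.27 CPM (0.45 ± 0.057, adjusted p = 1.1e-06). WTAP, the regulatory subunit, fell from 32.2 ± 2.02 to 27.0 ± 1.96 CPM (-0.25 ± 0.061, adjusted p = 0.0015).

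**Figure D3:**
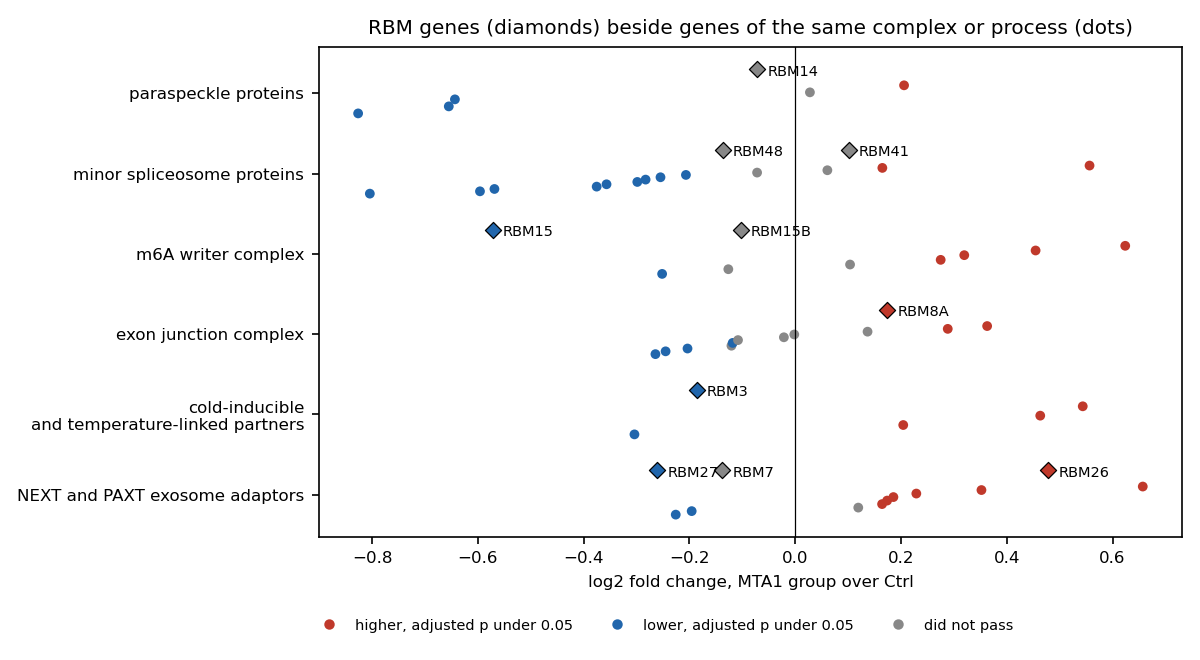
Log2 fold change, MTA1 group over Ctrl, of RBM genes (diamonds) and of other genes of the same complex or process (dots), coloured by the call. RBM15 lies at -0.57 while 4 of 7 other m6A writer genes rose, and RBM26 lies at 0.48 and RBM27 at -0.26 beside adaptors of the exosome of which 6 of 9 rose.

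Adaptors that pass nuclear RNA to the exosome or to export differed between paralogs. RBM26 and RBM27 encode related zinc finger proteins that act with the poly(A) tail exosome targeting connection. RBM26 (ENSG00000139746.16, chromosome 13) had 26.6, 27.4 and 26.6 CPM in Ctrl and 36.9, 37.1 and 38.4 CPM in the MTA1 group, with little spread in either, and rose 1.39-fold (0.48 ± 0.050, adjusted p = 7.3e-08). RBM27 (ENSG00000091009.8, chromosome 5) had 4.72, 4.49 and 4.38 CPM in Ctrl and 3.58, 3.88 and 3.87 CPM in the MTA1 group. The groups did not overlap, but its call (-0.26 ± 0.11, adjusted p = 0.047) ended when any one library was left out (adjusted p from 0.055 to 0.14) and with the replicate number as a block (0.055). In GENCODE release 29, 45.4% of the exonic bases of RBM27 also belong to another gene model on the same strand. RBM7, the RNA-binding subunit of the nuclear exosome targeting complex, was at 14.5 ± 1.30 and 13.1 ± 0.583 CPM (-0.14 ± 0.073, adjusted p = 0.11). Its partners ZCCHC8, from 13.0 ± 1.36 to 20.5 ± 1.14 CPM (0.66 ± 0.072, adjusted p = 1.8e-07), and MTREX, chosen after its value was seen (0.35 ± 0.056, adjusted p = 2.0e-05), rose. Of the 9 exosome adaptors and cap-binding partners, 6 rose (66.7%, against 29.5% of all tested genes) and 2 fell (22.2%, against 28.6%), the cap-binding subunit NCBP2 from 103 ± 1.57 to 90.1 ± 0.581 CPM (-0.20 ± 0.040, adjusted p = 3.1e-04). RBM33, which takes part in message export, did not pass (-0.09 ± 0.051, adjusted p = 0.13), though its groups did not overlap and it passed after the GC and length correction (-0.17, 0.0070).

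RBM3 (ENSG00000102317.18, chromosome X) is induced by mild cold and supports translation. It had 158, 154 and 153 CPM in Ctrl and 137, 137 and 136 CPM in the MTA1 group. The groups were apart and the MTA1 libraries nearly equal, with a fall to 0.879 of the control level (-0.19 ± 0.038, adjusted p = 3.2e-04). CIRBP, the other cold-inducible RNA-binding protein gene, chosen after its value was seen, moved the other way, from 63.2 ± 1.65 to 72.9 ± 2.91 CPM (0.20 ± 0.045, adjusted p = 7.0e-04). Of the 4 partners listed with RBM3, SRSF5 fell from 262 ± 1.76 to 212 ± 6.58 CPM (-0.30 ± 0.039, adjusted p = 1.4e-06), and CLK1, a kinase of splicing factors whose activity depends on temperature, rose from 5.21 ± 0.661 to 7.60 ± 0.106 CPM (0.54 ± 0.098, adjusted p = 8.3e-05).

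The 3 nucleolar members all passed, as did 58.1% of all tested genes, so with so few members their number says little. RBM19 and RBM28, both needed for processing of ribosomal RNA, rose, and RBM34, another nucleolar protein, fell. RBM19 (ENSG00000122965.11, chromosome 12) had 89.9, 94.7 and 95.3 CPM in Ctrl and 146, 148 and 149 CPM in the MTA1 group. The MTA1 libraries were tightly grouped above Ctrl, and the rise was 1.58-fold (0.66 ± 0.041, adjusted p = 3.6e-11), the smallest p of the 39 tested members. RBM28 (ENSG00000106344.8, chromosome 7) had 73.4, 69.1 and 69.5 CPM in Ctrl and 101, 99.4 and 100.5 CPM in the MTA1 group and rose 1.42-fold (0.51 ± 0.042, adjusted p = 3.5e-09). RBM34 (ENSG00000188739.15, chromosome 1) had 129.7, 129.7 and 136 CPM in Ctrl and 91.3, 88.6 and 97.6 CPM in the MTA1 group. No library crossed over, and RBM34 fell to 0.702 of its control level (-0.51 ± 0.044, adjusted p = 6.1e-09). In GENCODE release 29, 51.5% of the exonic bases of RBM34 also belong to exons of ARID4B on the same strand, so reads there could be given to either gene. ARID4B moved the other way, from 10.7 ± 0.340 to 13.0 ± 0.128 CPM (0.28 ± 0.068, adjusted p = 0.0015).

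RBM14 encodes a coactivator found in paraspeckles, nuclear bodies that hold RNA. It was at 11.5 ± 0.679 CPM in Ctrl and 10.9 ± 0.320 CPM in the MTA1 group and did not pass (-0.07 ± 0.072, adjusted p = 0.41). Of 5 other paraspeckle proteins, 3 fell (60.0%, against 28.6% of all tested genes) and 1 rose (20%, against 29.5%). PSPC1 fell from 195 ± 5.69 to 109.9 ± 4.22 CPM (-0.83 ± 0.042, adjusted p = 2.2e-12), and SFPQ, chosen after its value was seen, fell too (-0.66 ± 0.040, adjusted p = 3.7e-11), while NONO rose from 800.0 ± 17.8 to 923 ± 9.59 CPM (0.21 ± 0.039, adjusted p = 1.3e-04).

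RBMX (ENSG00000147274.14, chromosome X), also called hnRNP G, binds nascent transcripts and regulates splicing and chromosome cohesion. It had 207, 215 and 204 CPM in Ctrl and 173, 166 and 182 CPM in the MTA1 group. Each MTA1 library was lower than each Ctrl library (-0.26 ± 0.042, adjusted p = 2.5e-05). RBMXL1, an intronless copy of RBMX on chromosome 1 that can share its reads, had 8.28, 7.63 and 8.24 CPM in Ctrl and 9.71, 7.03 and 9.25 CPM in the MTA1 group. MTA1 replicate 2 was the lowest of all 6, the gene did not pass (0.10 ± 0.10, adjusted p = 0.39), and it passed as higher without that library (adjusted p = 0.032). RBMXL2, a further copy known from the testis, had 2 to 7 counts per library and was not tested.

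The RBMS genes encode binders of single-stranded DNA and RNA. RBMS1 and RBMS2 fell and RBMS3 rose. RBMS2 (ENSG00000076067.13, chromosome 12) had 14.4, 13.8 and 13.7 CPM in Ctrl and 11.3, 11.1 and 9.92 CPM in the MTA1 group (-0.37 ± 0.071, adjusted p = 1.5e-04). RBMS1 (ENSG00000153250.20, chromosome 2) had 22.3, 22.5 and 21.1 CPM in Ctrl and 19.2, 16.9 and 15.9 CPM in the MTA1 group, where replicate 1 lay closest to Ctrl (-0.34 ± 0.066, adjusted p = 1.8e-04). RBMS3 (ENSG00000144642.22, chromosome 3) was rare, with 29, 35 and 32 counts in Ctrl and 54, 54 and 48 in the MTA1 group. That was 0.993 ± 0.0675 against 1.67 ± 0.115 CPM, without overlap (0.75 ± 0.19, adjusted p = 0.0023).

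The largest rise among the 39 tested members was that of RBM12B (ENSG00000183808.12), a little studied member with several RNA recognition motifs. It had 7.44, 7.39 and 7.36 CPM in Ctrl and 13.8, 12.8 and 15.3 CPM in the MTA1 group. The Ctrl libraries were nearly equal and all MTA1 libraries lay far above them, a 1.88-fold rise (0.91 ± 0.079, adjusted p = 6.2e-09). In GENCODE release 29, 38.8% of its exonic bases are also exonic on the opposite strand, in part in the gene now named CIBAR1, which moved the other way (-0.44 ± 0.063, adjusted p = 5.6e-06). RBM12, its relative, did not pass (-0.11 ± 0.058, adjusted p = 0.12), though it passed after the GC and length correction (-0.16, 0.021), and CPNE1, with which it shares exons on the same strand, rose (0.38 ± 0.046, adjusted p = 6.8e-07). RBM18 (-0.11 ± 0.076) and RBM43 (0.47 ± 0.34) did not pass.

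Between the paralogs of 10 pairs, the ratio of the counts within a library, which no scaling of libraries can change, shifted without overlap in 8. The share among pairs of other genes was not measured, and 62.7% of all tested genes did not overlap when taken singly. The count of 8 therefore cannot be read as particular to paralogs. With 3 libraries against 3 the smallest exact permutation p is 0.10, which 8 pairs reached (2-sided, 0.125 when adjusted over the 10 pairs), so no pair could pass a threshold of 0.05. The log2 ratio of RBM12 to RBM12B went from 1.49 ± 0.0565 in Ctrl to 0.46 ± 0.17 in the MTA1 group, a shift of -1.02. RBM26 to RBM27 went from 2.57 ± 0.0639 to 3.31 ± 0.0552, a shift of 0.74. RBM4 to RBM4B went from -0.49 ± 0.13 to 0.14 ± 0.063, so that RBM4 held fewer counts than RBM4B in each Ctrl library and more in each MTA1 library.

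RBM5 gained on RBM10 by 0.61, from -0.76 ± 0.063 to -0.15 ± 0.032, and on its neighbour RBM6 by 0.24, from -1.01 ± 0.039 to -0.77 ± 0.032. RBM15 lost 0.47 against RBM15B, from -2.78 ± 0.17 to -3.25 ± 0.15. RBM23 gained 0.32 on RBM39 and RBMX lost 0.36 against RBMXL1. RBMS1 and RBMS2 kept a similar ratio, 0.65 ± 0.047 and 0.69 ± 0.081 (exact permutation p = 0.70), and that of RBM24 to RBM38 overlapped between the groups (0.43, exact permutation p = 0.60) and was 0.013 without Ctrl replicate 1, 0.18 without MTA1 replicate 3 and 0.68 without Ctrl replicate 3.

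**Figure D4:**
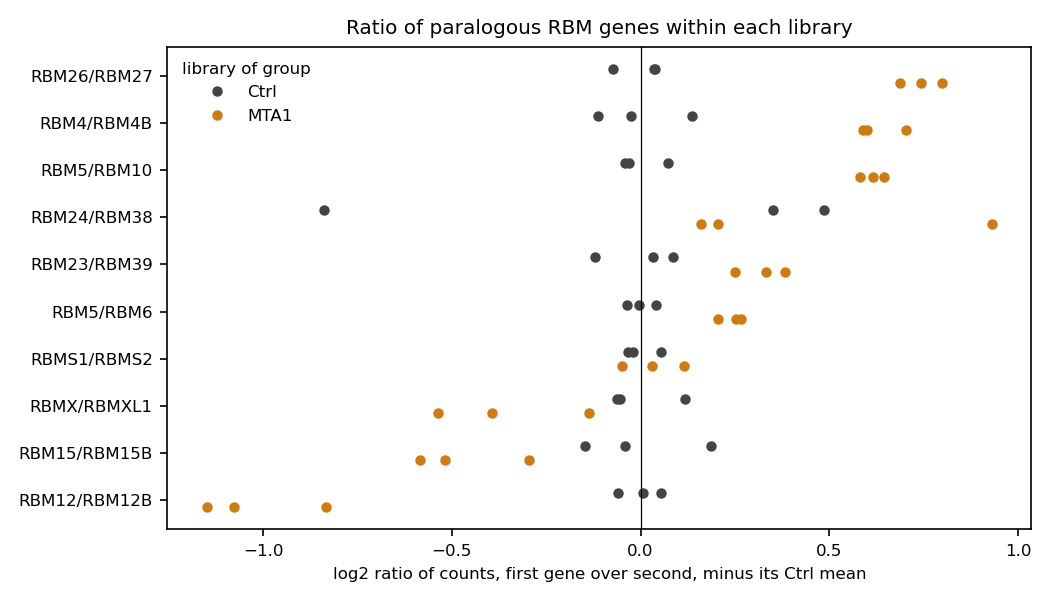
Log2 ratio of the counts of 2 paralogous RBM genes in each library, with the mean of the Ctrl libraries set to 0 (grey points for Ctrl, orange for MTA1). The MTA1 libraries lie apart from Ctrl for 8 of 10 pairs, from RBM12/RBM12B with a shift of -1.02 to RBM26/RBM27 with 0.74. The share among pairs of other genes was not measured.

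Levels between genes were compared in the deposited FPKM, which are scaled for gene length. In Ctrl, 14 of the 39 tested members were above 10 FPKM and 9 were below 1 FPKM, with a median of 2.41. The 3 most abundant over both groups were RBM10 with 60.0 ± 3.39 FPKM in Ctrl and 61.2 ± 3.43 in the MTA1 group, RBM6 with 34.4 ± 0.405 and 45.6 ± 2.62, and RBMX2 with 35.5 ± 1.58 and 34.2 ± 2.17. In Ctrl the SD ranges of RBM6, RBMX2, RBM42 (33.7 ± 0.753) and RBM17 (33.1 ± 1.38) met, below RBM34 (38.7 ± 1.03), and RBM6 stood above RBM34 in the MTA1 group, where RBM34 was at 28.5 ± 1.58. Counts of all tested members together summed to 2703 ± 7.17 CPM in Ctrl and 2882 ± 32.4 CPM in the MTA1 group. Of these, the members called higher held 982 ± 11.9 and 1335 ± 9.16 CPM and the members called lower 935 ± 10.2 and 780.3 ± 13.2 CPM, a direction fixed by how they were chosen.

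Members that rose had a longer median transcript than those that fell, a difference that was not tested. The median length of the longest transcript in GENCODE release 29 was 5616 bases for the 11 that rose, 3998 bases for the 12 that fell and 4143 for the 16 others. Among protein-coding genes the medians were 3964 bases for those that rose and 3023 for those that fell. Across the 39 members the log2 fold change had a Pearson correlation of 0.39 and a Spearman correlation of 0.36 with log2 length, and 0.12 and 0.15 across 12608 protein-coding genes. Genes of 1 set of libraries are not independent replicates, so no p is given. Once GC content and length were corrected for, 11 members were higher and 15 lower, and 22 of the 23 calls held, the exception being RBMX2.

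**Figure D5:**
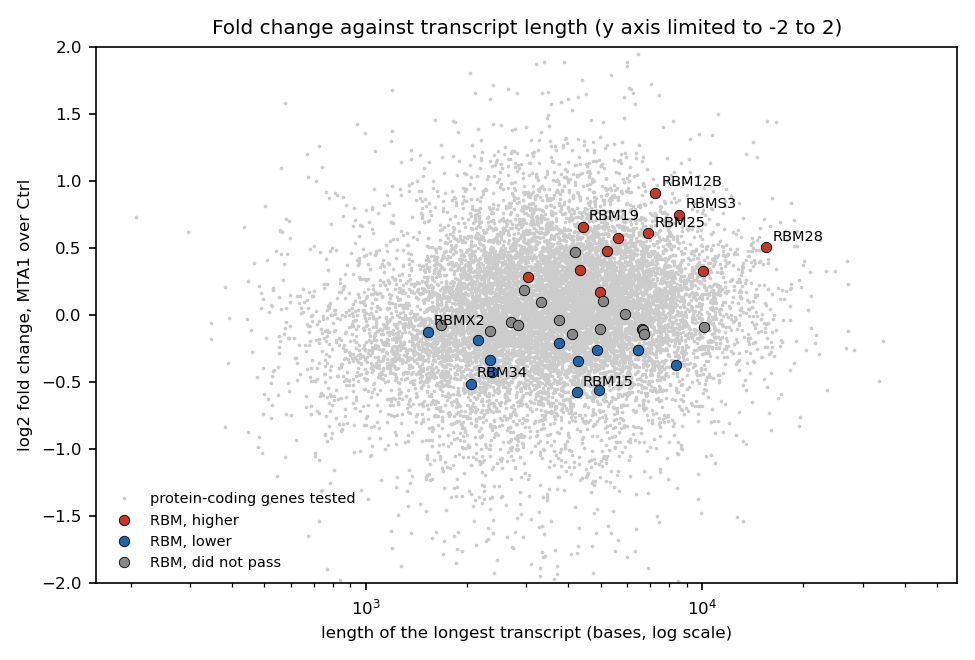
Log2 fold change, MTA1 group over Ctrl, against the length of the longest transcript (log scale) for protein-coding genes (grey) and RBM genes (coloured by the call), with the vertical axis limited to -2 to 2. RBM12B, RBMS3, RBM25 and RBM28 lie at the long, higher side and RBM34 and RBMX2 at the short, lower side, while RBMS2 is lower at 8382 bases.

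Of 5 X-linked members tested, RBM3 and RBMX fell, RBMX2 fell with groups that overlapped and a call lost under 10 of 19 alternatives, and RBM10 and RBM41 did not pass. The share called was 60.0%, against 60.2% of X-linked protein-coding genes, of which 29.7% fell. Their median log2 fold change was -0.12, against -0.0041 for 394 X-linked protein-coding genes tested. RBM20, the heart regulator of titin splicing, had 5, 13 and 9 counts in Ctrl and 5, 4 and 0 in the MTA1 group, and RBM44 had 5, 4 and 2 and 12, 9 and 8. Both were too rare for the filter on low counts. With no filter they passed, RBM20 as lower (-1.49, adjusted p = 0.033) and RBM44 as higher (1.42, adjusted p = 0.028). They were tested in no other setting, and in that fit 9106 of 30651 genes passed. Its edgeR adjusted p-values differed widely from those with the filter, with RBM12B at 9.5e-28 against 6.2e-09 and RBM27 at 0.096 against 0.047.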

How the data were processed

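Total RNA of PC-3 cells was made into stranded total RNA libraries with the SMARTer kit and sequenced as paired reads on a NovaSeq, per the labels' protocols. The authors deposited whole-number counts per gene without normalization (30651 genes) and FPKM values scaled for gene length and depth (29969 genes), per the file headers. The submitters' processing notes name DESeq2, while for the aligner, counter, strand setting, genome build and annotation the entry is "not given in the sources used here". Column names holding MTA1 gave the MTA1 samples, and the remaining NC columns were taken as Ctrl by elimination. Squared differences between replicate libraries were 1.62 to 2.31 times those of counting noise (from the median over genes). Across the groups the same ratio was 11.4 to 12.7.

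The count test was that of edgeR 4.0.16 in R 4.3.3: filterByExpr (15423 genes kept), TMM scaling and a 2-sided quasi-likelihood F test without covariates, its p-values adjusted by Benjamini-Hochberg across the 15423 genes and called below 0.05. On simulated data in which few genes changed, the test was checked to recover known changes. Here 58.1% of all tested genes passed, so that check does not cover this setting. Alternatives used DESeq2 1.42.0, limma 3.58.1 (log2(FPKM + 0.1) and log2(FPKM + 1), for genes of at least 0.1 FPKM in 3 libraries), other scalings and filters, a minimum fold of 1.2, a replicate block and each library left out. A correction for GC content and length was chosen after seeing the data. Paralog ratios used exact permutation tests. Transcript lengths and exon overlaps come from GENCODE release 29 and promoters from RefSeq GRCh38.p14, matched by symbol. The members, role groups, partner lists and pairs were chosen with earlier results of these data known. Genes named with values in every library were, in each role group, up to 3 that passed with the smallest p in the commoner direction and 1 in the other, and the 3 most abundant. RBM4, RBM4B, RBM15B and RBMXL1 were added as paralogs of described members, after their values were seen. From each partner list the rule took the gene with the smallest p in each direction.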

Additional observations from a re-analysis of the deposited data

How the results depend on the processing

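Over 19 alternatives, 12 of the 23 called RBM genes kept their direction and their call in every setting in which they were tested: RBM12B, RBMS3, RBM19, RBM25, RBM5, RBM28, RBM26, RBM6, RBM38, RBM34, RBM47 and RBM15. A further 7 (RBM23, RBM3, RBM4B, RBM8A, RBMS1, RBMS2 and RBMX) lost the call only when a fold of at least 1.2 was asked for, and RBM17, RBM27, RBM4 and RBMX2 lost it elsewhere as well. With that minimum fold 12 members passed, 8 higher and 4 lower. No called member changed direction. Of the 16 members that did not pass, 7 passed under some alternative. The count of calls was 23 with the DESeq2 size factors and with limma-voom, 20 with the DESeq2 test, 19 on each FPKM scale and 26 after the GC and length correction, and ran from 20 to 23 when 1 library was left out. Same-numbered libraries had deviations with correlations of 0.067, -0.021 and 0.019 over all tested genes. Much of the difference between replicates is counting noise, so these values cannot tell whether the numbers pair the libraries. Over all genes 9139 passed with the replicate block, against 8954 without it. With the replicate block 23 members passed, RBM15B in place of RBM27. The shift in the RBMS1 to RBMS2 ratio ran from -0.0085 to 0.073 when 1 library was left out and turned negative without MTA1 replicate 1, and the cause was not tested. Depth limits the members under 1 CPM: RBM24 and RBM43, below it in both groups, had 8 to 25 counts per library.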

Other observations

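The table also lists 18 genes with RBM symbols that are not protein-coding, and 16 of them had fewer than 100 counts over all libraries. The antisense gene RBM26-AS1 had 136 counts in all and did not pass (-0.08 ± 0.25, edgeR adjusted p = 0.82) while RBM26 on the other strand rose, and RBM15-AS1 had 69 (-0.32 ± 0.36, adjusted p = 0.45). Genes that share exonic bases with a member often had other values than the member: DCAF1, opposite RBM15B, rose (0.43 ± 0.054, adjusted p = 9.5e-07), and BAZ2A, opposite RBMS2, rose (0.29 ± 0.055, adjusted p = 1.6e-04). In GENCODE release 29, 11 of the 39 tested members share no exonic base with another gene, among them RBM17, RBM22 and RBM39.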
